A study of Mus musculus with 16 samples.

Results

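The 7 tumours described here are the mouse liver tumours labelled as mutated in Ctnnb1, which encodes beta-catenin, out of 16 liver samples that were each hybridised to 1 Affymetrix GeneChip array. They were taken by their labels alone. The mice were male C3H/HeJ. Per the series design they had 1 injection of the liver carcinogen diethylnitrosamine into the abdomen, 10 or 90 µg per g, when they were 2 or 6 weeks old, and, 2 weeks later, a diet with or without 0.05% phenobarbital for 28 to 36 weeks. Phenobarbital, a barbiturate, acts through the nuclear receptor CAR and is a promoter of liver tumours. The sample labels give the Ctnnb1 tumours 0.05% phenobarbital in drinking water for 27 weeks, and the treatment text gives 28 days, so the course is not settled. The other 9 arrays are used for levels and spread only: 3 non-tumour livers labelled as controls under phenobarbital, 3 tumours with a Ha-ras mutation without phenobarbital, and 3 untreated non-tumour livers. The labels say neither whether the 7 tumours came from separate animals nor which dose and age each had, so their spread may mix tumour, animal and array, and p-values measure only the spread between these samples. Of 18193 genes with a probe set of their own, 9509 had a mean log2 level of at least 6 over the 7 tumours, and all results are over these genes, each by its probe set with the highest mean. Values are log2 RMA levels, and where 7 are given they run from tumour 1 to tumour 7, an order that carries no meaning.

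Beta-catenin joins cell adhesion at the membrane to gene control in the nucleus, where with TCF/LEF factors it switches on Wnt target genes, several of which (Axin2, Nkd1, Notum, Rnf43) feed back to dampen the signal. In the healthy liver this pathway is active in the hepatocytes around the central vein, which express Glul, the glutamine synthetase, and it keeps the genes of periportal hepatocytes low. Glul is therefore the usual marker of beta-catenin activity in liver tumours. Mki67 marks dividing cells, and Nqo1, a quinone reductase, is a target of NRF2, the transcription factor of the antioxidant response.

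Promoters are shown for genes that the results turn on: Mki67, 2 of its closest partners by correlation (Cdk1 and Ckap2) and Nusap1, a close partner with no match, then Sp5 among the partners of Glul and Srxn1 among those of Nqo1. The sequences are RefSeq's (GRCm38.p6), 250 bases before to 50 after the gene's start, read 5′ to 3′ on the gene's strand. Capitals mark a match, on either strand, to a motif searched: TTTGAA, the core of the cell cycle homology region, in the first 4, CTTTGAT or CTTTGAA, the core bound by TCF/LEF factors, in Sp5, and TGACNNNGC, the core of the antioxidant response element, in Srxn1, where the match reads on the opposite strand. CTTTGAA contains TTTGAA. The stretches lie at chr7:135716330-135716629 (minus strand, Mki67), chr10:69352863-69353162 (minus, Cdk1), chr8:22185770-22186069 (minus, Ckap2), chr2:119618048-119618347 (plus, Nusap1), chr2:70474673-70474972 (plus, Sp5) and chr2:152105274-152105573 (plus, Srxn1).
Mki67: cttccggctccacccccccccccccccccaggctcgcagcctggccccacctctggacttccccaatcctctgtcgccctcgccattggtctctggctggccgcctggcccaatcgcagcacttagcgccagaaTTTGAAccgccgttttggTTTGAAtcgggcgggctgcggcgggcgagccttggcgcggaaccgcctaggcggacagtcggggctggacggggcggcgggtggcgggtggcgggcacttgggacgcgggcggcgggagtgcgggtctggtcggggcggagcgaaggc
Cdk1: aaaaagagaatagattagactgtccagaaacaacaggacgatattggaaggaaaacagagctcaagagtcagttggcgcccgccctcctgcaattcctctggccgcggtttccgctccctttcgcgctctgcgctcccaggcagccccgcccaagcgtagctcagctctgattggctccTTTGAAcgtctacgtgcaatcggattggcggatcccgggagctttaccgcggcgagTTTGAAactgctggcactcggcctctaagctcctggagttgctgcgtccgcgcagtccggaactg
Ckap2: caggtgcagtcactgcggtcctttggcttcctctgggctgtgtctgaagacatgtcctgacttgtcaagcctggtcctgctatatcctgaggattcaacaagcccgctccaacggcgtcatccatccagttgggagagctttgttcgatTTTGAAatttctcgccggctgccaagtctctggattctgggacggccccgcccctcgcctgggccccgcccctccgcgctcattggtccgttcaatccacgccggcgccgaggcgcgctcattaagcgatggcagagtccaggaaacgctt
Nusap1: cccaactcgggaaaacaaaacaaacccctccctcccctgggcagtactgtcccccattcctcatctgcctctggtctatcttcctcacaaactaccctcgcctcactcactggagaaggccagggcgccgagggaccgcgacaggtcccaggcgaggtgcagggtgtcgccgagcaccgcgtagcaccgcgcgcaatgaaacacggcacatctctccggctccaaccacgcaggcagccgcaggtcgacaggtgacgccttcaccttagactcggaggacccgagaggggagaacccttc
Sp5: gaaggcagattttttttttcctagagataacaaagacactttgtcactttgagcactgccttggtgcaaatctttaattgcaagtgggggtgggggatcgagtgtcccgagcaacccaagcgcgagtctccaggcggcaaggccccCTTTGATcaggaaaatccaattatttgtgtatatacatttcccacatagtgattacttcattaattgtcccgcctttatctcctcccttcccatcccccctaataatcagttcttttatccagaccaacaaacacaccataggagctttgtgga
Srxn1: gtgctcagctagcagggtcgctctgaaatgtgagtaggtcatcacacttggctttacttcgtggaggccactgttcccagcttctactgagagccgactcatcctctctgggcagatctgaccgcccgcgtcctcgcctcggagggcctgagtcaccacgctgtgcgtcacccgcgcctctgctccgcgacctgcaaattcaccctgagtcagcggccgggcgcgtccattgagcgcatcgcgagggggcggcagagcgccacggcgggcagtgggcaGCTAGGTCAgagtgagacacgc

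Partners are the 10 genes with the highest correlation to each gene among those with an SD of at least 0.5 log2 units over the tumours. Of the 10 of Mki67, 9 held TTTGAA in this window, all but Nusap1, against 17.9% of 32851 promoters and 14.2% of the 7778 kept genes with a promoter in the table. With no limit on the SD, which lets in Top2a among others, it was 7 of the 9 with a promoter. In Mki67 itself there were 2 matches. TGACNNNGC was found in 3 of the 9 partners of Nqo1 with a promoter (Srxn1, Pgd and Pparg), against 12.4% of promoters and 17.2% of kept genes with any of their promoters counted, and not in the window of Nqo1. In Pgd and Pparg the match lay only in an alternative promoter, so that by each gene's first promoter it was 1 of 9, against 15.1% of kept genes. CTTTGAT was found in 1 of 6 partners of Glul (Sp5), against 3.73% of promoters, and with no limit on the SD in 0 of 7, and CTTTGAA in 0 of 6, against 5.14%. A match is a description of the letters and shows no binding.

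The arrays of the tumours were alike in their medians, between 5.03 and 5.07. The range between their quartiles was 3.41 in tumour 7, 3.42 in tumour 2 and 3.52 to 3.59 in the other 5. Tumours 7 and 2 were also the extremes of Nqo1. Quantile normalization over the 7 tumours is among the alternatives given below. The difference between the Gapdh control probe sets at the 3′ and the 5′ end, larger in degraded RNA, was 0.29 in tumour 5 and −0.15 to 0.01 in the other 6 tumours. It was 2.70 in phenobarbital control 6, against 0.32 and 0.28 in phenobarbital controls 4 and 5, and −0.09 to 0.30 in the Ha-ras tumours and untreated livers. Without control 6 the largest shift of a phenobarbital control mean given here was 0.51 log2 units, for Glul, and the part of RNA quality in these levels was not tested. Tumours 6 and 7 stood apart. The first principal component held 34.1% of the variance, with tumour 7 at 37.3, tumour 6 at 10.0 and the other 5 between −15.2 and −6.7. The second held 22.6%, with tumour 6 at 30.6 and the other 6 between −13.3 and 3.3. Across genes, which are not independent replicates, tumour 7 correlated with the other 6 at 0.951 on average, tumour 6 at 0.961, and the remaining 5 at 0.965 to 0.974.

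The mutated gene's own transcript hardly varied. Ctnnb1 measured 12.46, 12.47, 12.42, 12.54, 12.38, 12.20 and 12.46 in the tumours (SD 0.11, n = 7), beside 12.38 ± 0.13 in phenobarbital control livers (SD, n = 3), and this level does not show the mutation. The hepatocyte markers were at a high level in every tumour, with the mean of the 8 kept between 13.43 and 13.57 and a median SD of 0.131. Of the 7 measured cholangiocyte markers none was kept. Cyp2b10, the cytochrome P450 that phenobarbital induces through CAR, measured 12.76, 13.31, 12.61, 13.02, 12.57, 12.43 and 13.06, against 12.62 ± 0.18 in phenobarbital control livers and 7.54 ± 0.76 in untreated livers (SD, n = 3 each).

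Over all 9509 genes the median SD among the tumours was 0.201 (quartiles 0.146 and 0.292), and 123 genes, 1.29%, had an SD of at least 1 log2 unit. Just inside that limit lay Lcn2 and Clec4g, with SDs of 1.0005 and 1.0012, and just outside it Gipc2 and Rragd, with 0.9994 and 0.9988. Of the 123, 62 were below 6 in at least 1 tumour, where RMA levels include background. The median SD of all genes was 0.255 among phenobarbital control livers, 0.168 among Ha-ras tumours and 0.138 among untreated livers, with 3 arrays in each. In those groups 151, 146 and 62 of the 9509 genes had an SD of at least 1, and 26, 21 and 13 of these were among the 123, which were chosen for their spread in the Ctnnb1 tumours. Without phenobarbital control 6 the median SD of phenobarbital control livers was 0.110 and the counts were 39 and 19, from 2 arrays. At the other end Apoa2, an apolipoprotein of HDL, had the smallest SD, 0.027, at levels between 14.68 and 14.75. These lie near the top of the scale, where the highest level of any gene was 15.06, and the 32 genes with a mean of at least 14 had a median SD of 0.0933, so a small SD there need not show a steady transcript.

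The most variable gene was Sult1e1, the estrogen sulfotransferase, with 8.38, 9.98, 8.93, 4.87, 5.64, 5.11 and 8.56 (SD 2.08). It was high in tumours 1, 2, 3 and 7 and low in 4, 5 and 6, with nothing in between. Cyp2b13 and Cyp2b9, cytochromes P450 with higher levels in female liver, formed another split: Cyp2b13 measured 7.44, 10.41, 7.94, 10.44, 9.98, 6.83 and 7.19 and was high in tumours 2, 4 and 5, as was Cyp2b9 at 10.33 to 10.58 against 8.08 to 8.60 in the other 4. Of the 9 kept male-biased liver genes, 4 were lowest in tumour 7, 3 in tumour 6 and 1 each in tumours 2 and 3. Over all genes the tumour farthest from the median, on either side, was tumour 7 for 32.2% and tumour 6 for 15.4%. The share of all genes lowest in each tumour was not counted, so these counts mark no trait of male-biased genes. Hsd3b5, a steroid dehydrogenase, had 10.61, 7.27, 9.95, 9.42, 8.97, 6.19 and 7.43, and Slco1a1, an organic anion carrier, 9.85, 7.76, 8.36, 9.86, 9.51, 6.53 and 7.63. Hsd3b5 and Slco1a1 were lowest in tumour 6. Probe sets of the Cyp2, Mup and Saa families share sequence between members, so the member measured is uncertain.

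**Figure D1:**
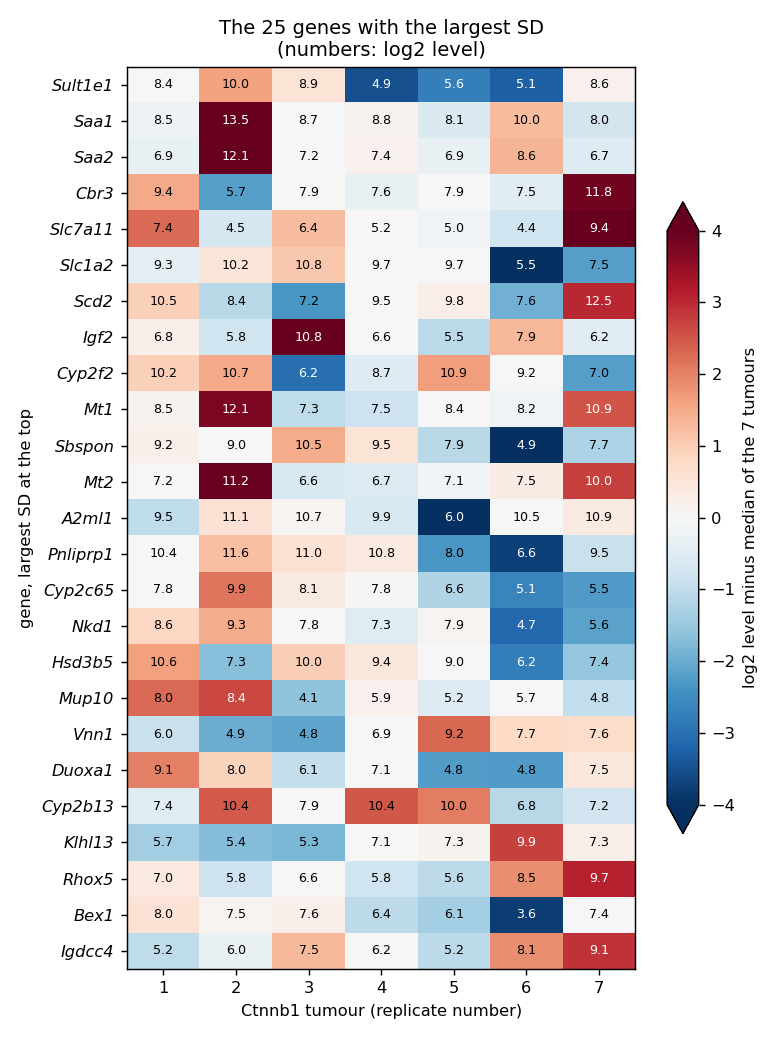
Heat map of the 25 genes with the largest SD (rows) in the 7 Ctnnb1 tumours (columns), coloured by the log2 level minus the median of the 7, with the level printed in each cell; colours stop at 4 either way. Saa1 and Saa2 are high in tumour 2, Igf2 in tumour 3 and Cbr3 and Slc7a11 in tumour 7, while Slc1a2, Sbspon and Bex1 are low in tumour 6.

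Tumours 6 and 7 were the most often extreme. For each of the 123 genes the tumour farthest from the median was found: it was tumour 6 for 41 genes (9 high, 32 low) and tumour 7 for 34 (17 high, 17 low), then tumour 3 for 16, tumour 2 for 12, tumour 5 for 11, tumour 1 for 5 and tumour 4 for 4. Over all genes it was tumour 7 for 32.2% and tumour 6 for 15.4%. The tumours are described by these genes in what follows.

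Tumour 2 carried the highest acute phase and metallothionein levels. Saa1, a serum amyloid A protein secreted by the liver in inflammation, measured 8.50, 13.46, 8.71, 8.84, 8.13, 9.97 and 7.97, and Saa2 6.91, 12.06, 7.21, 7.36, 6.90, 8.56 and 6.68. In both, tumour 2 was more than 3 log2 units above the next tumour, which was tumour 6. Saa1 was 9.93 ± 0.12 in phenobarbital control livers and 13.24 ± 0.94 in untreated livers (SD, n = 3 each). Mt1, a metallothionein that binds zinc and copper, measured 8.50, 12.13, 7.34, 7.52, 8.36, 8.20 and 10.88, high in tumours 2 and 7, and Mt2 did the same at 11.20 and 9.97 against 6.60 to 7.53. Orm3, an orosomucoid, was 9.05 in tumour 2 and 6.18 to 7.55 in the others. Tspan8, a tetraspanin, was also highest there, at 9.85 against 6.03 to 8.28.

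Tumour 3 held the highest Igf2, a fetal growth factor, with 6.77, 5.77, 10.81, 6.57, 5.51, 7.92 and 6.16. It was nearly 3 log2 units above the next tumour. Periportal hepatocyte genes were low in tumours 3 and 7: the mean of the 15 kept was 9.07, 9.54, 8.19, 8.76, 9.66, 9.63 and 8.09. Cyp2f2, a cytochrome P450 of periportal hepatocytes, measured 10.19, 10.72, 6.20, 8.70, 10.88, 9.22 and 7.02, and Hal, the histidine ammonia-lyase, 7.54, 7.93, 5.71, 6.84, 7.77, 7.51 and 5.76. These tumour levels stood against 13.18 ± 0.54 for Cyp2f2 and 11.36 ± 0.30 for Hal in phenobarbital control livers (SD, n = 3 each). Arg1, the arginase of the urea cycle, was 7.72 in tumour 3 and 8.77 in tumour 7, against 12.10 in tumour 6, with the other 4 between 9.20 and 11.12. Gldc, the glycine decarboxylase, ran the same way at 4.73, 5.37 and 7.80, and Pck1, the gluconeogenic enzyme, was highest in tumour 6 at 11.95 and between 8.63 and 10.73 in the others. Of the 15 periportal genes 5 had an SD of at least 1, against 1.29% of all genes. Got1, the cytosolic aspartate transaminase, was 5.96 in tumour 3, 8.18 in tumour 7 and 9.54 to 9.97 in the other 5.

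The 3 kept genes of the Y chromosome, which were named after their values were seen, were also low in tumour 3. Eif2s3y, a translation factor subunit, measured 9.93, 10.43, 7.53, 10.33, 9.92, 9.89 and 10.48, and Kdm5d, a histone demethylase, 7.29, 7.36, 5.02, 7.54, 7.42, 7.98 and 7.24. Uty was 5.12 in tumour 3 and 5.96 to 7.92 in the others. All mice are labelled male. In the other 9 arrays Eif2s3y lay between 10.48 and 10.82, so that tumour 3 was about 3 log2 units below the lowest of them. Xist, a transcript of female cells, was below 6 in every array and so was not a kept gene. It measured 3.79 in tumour 3, 3.58 to 4.21 in the other tumours and 3.70 to 4.39 in the other 9 arrays. The cause of the low Y chromosome levels in tumour 3 was not tested.

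Smaller sets singled out the remaining tumours. S100a8 and S100a9, calgranulins of neutrophils and monocytes, were highest in tumour 1, at 9.13 and 8.90, then in tumour 2 at 8.09 and 7.59, and between 5.81 and 6.74 in the others. In bulk tissue more cells of a type cannot be told apart from more RNA per cell. A2ml1, a proteinase inhibitor of the alpha-2-macroglobulin family, was 5.96 in tumour 5 and 9.52 to 11.11 in the others. Vnn1, a pantetheinase, was highest in tumour 5 at 9.20, with 4.78 to 7.67 elsewhere. Tumour 4 had the highest Mki67 and the lowest Sult1e1.

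The rest of the 25 most variable genes divided the tumours in other ways. Mup3, Elovl3, Arg2 and Orm2, given with them here, were named from gene lists and are not among the 25. Sbspon, a secreted matrix protein, measured 9.17, 8.97, 10.47, 9.51, 7.87, 4.90 and 7.70, Pnliprp1, a pancreatic lipase-related protein, 10.38, 11.58, 10.98, 10.77, 8.04, 6.64 and 9.47, and Bex1 8.02, 7.54, 7.62, 6.39, 6.08, 3.62 and 7.43. All 3 were lowest in tumour 6. Cyp2c65, a cytochrome P450, had 9.91 in tumour 2 and 5.14 and 5.53 in tumours 6 and 7. Duoxa1, the maturation factor of a dual oxidase, measured 9.08, 7.96, 6.12, 7.07, 4.84, 4.81 and 7.53, low in tumours 5 and 6. Rhox5, a homeobox gene, and Igdcc4, a cell surface protein, were highest in tumours 7 and 6, at 9.68 and 8.47 against 5.57 to 6.98 for Rhox5, and at 9.10 and 8.08 against 5.17 to 7.51 for Igdcc4. Mup10, a major urinary protein, was 8.0 and 8.40 in tumours 1 and 2 and 4.11 to 5.90 in the others, while Mup3 was lowest in tumour 3 at 9.20 and reached 12.24 in tumour 4. Elovl3, a fatty acid elongase, measured 9.89, 9.85, 7.94, 10.85, 10.27, 9.32 and 6.87, low in tumours 3 and 7. Arg2, the mitochondrial arginase, had 7.62, 9.20, 8.54, 8.0, 5.69, 6.63 and 8.14, against 4.26 ± 0.46 in phenobarbital control livers (SD, n = 3). Orm2, an orosomucoid, had 12.34, 13.88, 12.72, 12.19, 10.36, 10.89 and 11.19.

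**Figure D2:**
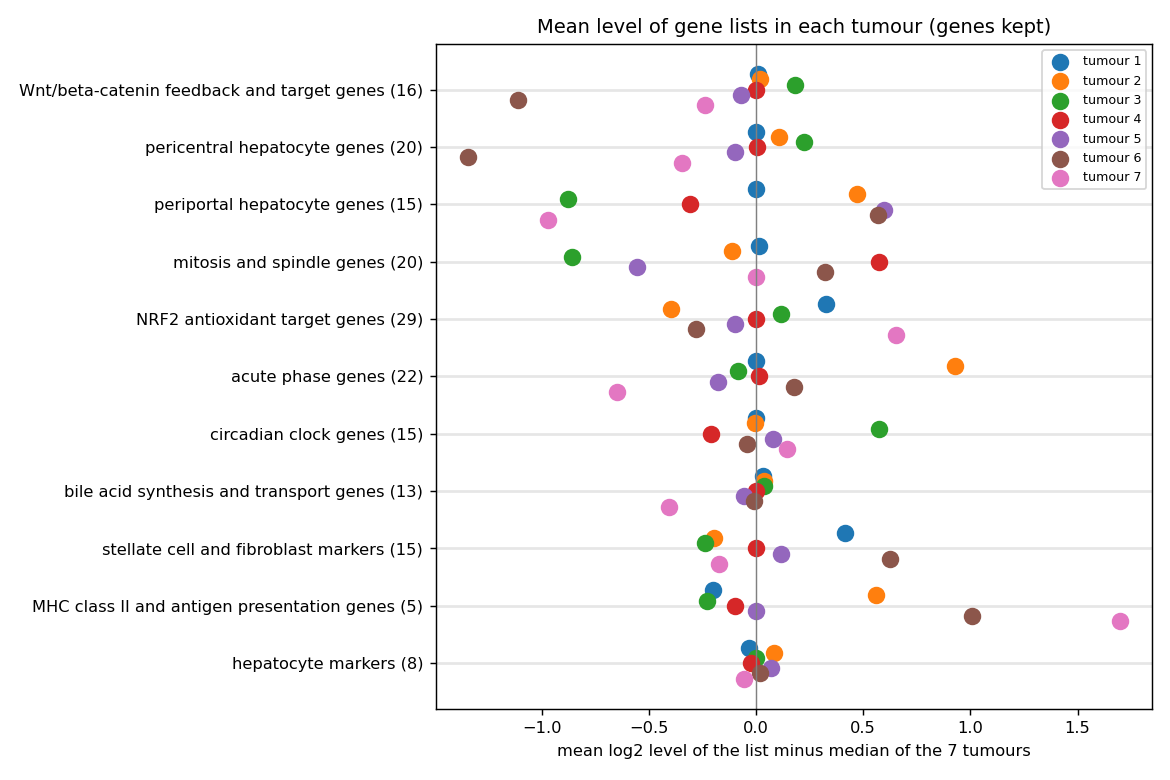
Mean log2 level of the kept members of 11 gene lists in each Ctnnb1 tumour, minus the median of the 7 tumours; each point is 1 tumour and the number of genes stands in brackets. Tumour 6 lies alone below the others for the Wnt and pericentral lists, tumours 3 and 7 lie low for the periportal list, tumour 2 lies high for acute phase genes, and the hepatocyte markers lie together.

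The Wnt and pericentral programme was lowest in tumour 6 and next lowest in tumour 7. The mean of the Wnt genes was 7.40 in tumour 6, 8.27 in tumour 7 and 8.44 to 8.69 in the other 5. That of the pericentral genes was 10.48, 11.48 and 11.72 to 12.05. Glul measured 13.72, 13.85, 14.13, 13.86, 13.80, 12.07 and 13.74 (13.60 ± 0.69, SD, n = 7), against 12.52 ± 1.19 in phenobarbital control livers (SD, n = 3), which measured 11.21, 12.79 and, in control 6, 13.54. By this probe set tumour 6 lay far below the next tumour, and the other 6 lay close together. These 6 were near the top of the scale, where the highest level of any gene was 15.06. Their closeness therefore need not show a steady transcript. The other probe set of Glul gave 10.00 in tumour 6, 12.49 in tumour 7 and 13.52 to 13.73 in the other 5. Across the tumours 260 genes, 2.73% of those tested, had a Pearson's r of at least 0.8 to Glul, and 186 genes, 1.96%, one of at most −0.8. In limma's regression of each gene on Glul 29 genes, 0.305%, passed a Benjamini-Hochberg adjusted p of 0.05, 21 upward and 8 downward. With exact permutation p-values adjusted over all 9508 genes none passed (lowest adjusted p 0.584), though 641 had an unadjusted exact p under 0.05. With 7 arrays none could pass unless many genes shared the lowest p, so this outcome was nearly fixed in advance. The same limit holds for Mki67 and Nqo1 below. The limma calls rested on tumour 6: without it 0 genes passed, while 14 passed without tumour 4, 18 without tumour 2 and 81 without tumour 7.

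Of the 16 kept Wnt feedback and target genes 8 had r of at least 0.8 to Glul, against 2.73% of all genes. An r of at most −0.8 was found in 0, and the median r was 0.768, against 0.00 over all genes. Axin2, the scaffold of the complex that degrades beta-catenin, measured 9.38, 8.93, 9.0, 8.93, 8.44, 6.84 and 8.50, against 7.31 ± 0.39 in phenobarbital control livers (SD, n = 3). Its r to Glul was 0.915 (exact permutation p = 0.0575) and rho 0.429 (exact p = 0.354), and r was −0.119 without tumours 3 and 6, the 2 farthest from the median of Glul. Glul, by the probe set used, hardly varied among the tumours left, so this r cannot show whether Axin2 and Glul rank them differently. The same limit holds for every other r to Glul given without tumours 3 and 6. Lgr5, the R-spondin receptor, separated both outlying tumours, with 8.83, 9.26, 9.38, 8.92, 8.78, 6.22 and 6.96. Its r to Glul was 0.815 (exact p = 0.00516), rho 0.857 (exact p = 0.0238), and r without tumours 3 and 6 was 0.575. Nkd1, which binds Dishevelled to dampen Wnt signalling, likewise had 8.61, 9.27, 7.79, 7.29, 7.91, 4.66 and 5.64. Sp5, a zinc finger factor switched on by Wnt, was 4.96 in tumour 6 and 7.82 to 9.16 in the others (r 0.967, adjusted p = 0.00622 in limma). Notum, an enzyme that inactivates Wnt proteins, was 7.22 in tumour 6 and 8.38 to 9.03 in the others, and Rnf43, a ubiquitin ligase that removes Wnt receptors, 7.25 and 8.19 to 8.66. Tbx3, a T-box factor, was 8.30 in tumour 6 and 9.46 to 9.85 in the others. With tumour 6 left out the r to Glul fell to 0.640 for Sp5, 0.654 for Notum and 0.576 for Tbx3.

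Of 19 kept pericentral genes other than Glul, 12 had r of at least 0.8, against 2.73% of all genes, and the median was 0.872. Oat, the ornithine aminotransferase, measured 13.54, 13.97, 14.09, 13.77, 13.91, 10.28 and 12.54, and Slc1a2, a glutamate transporter, 9.34, 10.25, 10.81, 9.73, 9.74, 5.53 and 7.52. In both, tumour 6 was lowest and tumour 7 the next lowest. Oat correlated with Glul at r 0.951 (exact permutation p = 0.00238) and rho 0.857 (exact p = 0.0238), and r was 0.646 without tumours 3 and 6. Rhbg, an ammonium transporter, was 7.91 in tumour 6 and 10.31 to 11.42 in the others, and Lhpp, a phosphatase, had 6.90 in tumour 6, 9.10 in tumour 7 and 10.40 to 11.11 in the other 5. Cyp1a2, a cytochrome P450, and Gulo, which makes vitamin C, were low in tumour 6 alone, at 12.63 and 12.36 against 13.78 to 14.33 and 13.29 to 13.62. Afp, the fetal serum protein, was 10.48 in tumour 6 and 11.76 to 12.79 in the others.

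The gene with the highest r to Glul was Atp10a, a phospholipid flippase, with 7.89, 7.75, 8.25, 7.87, 7.80, 4.60 and 7.50 (r 0.993, adjusted p = 0.000721 in limma). Nat8, an N-acetyltransferase, was 7.20 in tumour 6 and 9.91 to 10.38 in the others, and Tuba8, a tubulin, 6.68 and 8.27 to 9.04. Meg3, a long non-coding RNA of an imprinted region, was lowest in tumour 6 as well, at 9.78 against 10.83 to 12.72.

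In the opposite direction stood genes of fibrillar collagen, which fibroblasts and activated stellate cells make. Col1a1 measured 5.96, 5.92, 5.40, 5.64, 5.90, 7.77 and 5.78, and Col1a2 8.78, 8.32, 8.01, 8.41, 8.45, 10.56 and 8.47. Tumour 6 was nearly 2 log2 units above the next. Col1a2 had r −0.993 to Glul (exact permutation p = 0.000397, limma's adjusted p = 0.00227) and rho −0.964 (exact p = 0.00278), and r was −0.80 without tumours 3 and 6. For Col1a1 r was −0.992 (exact p = 0.00496), rho −0.857 (exact p = 0.0238) and r without tumours 3 and 6 −0.409. Col3a1 was 10.82 in tumour 6 and 8.60 to 9.48 in the others, and Col5a2 8.38 and 6.48 to 6.70. Of 15 kept stellate cell and fibroblast markers 3 had r of at most −0.8 (Col1a1, Col1a2 and Col3a1), against 1.96% of all genes. An r of at least 0.8 was found in 0, and the median was −0.318. Dcn, the proteoglycan decorin, did not follow the collagens, with 10.45, 9.58, 9.19, 9.65, 9.66, 9.50 and 7.99. The mean of the 15 markers was 7.71 to 8.57, highest in tumour 6, and its part in the Glul relation was not tested. Smoc2, a matrix protein, was 8.76 in tumour 6 and 4.44 to 6.57 in the others, and Klhl13, a ubiquitin ligase adaptor, 9.86 and 5.30 to 7.34.

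**Figure D3:**
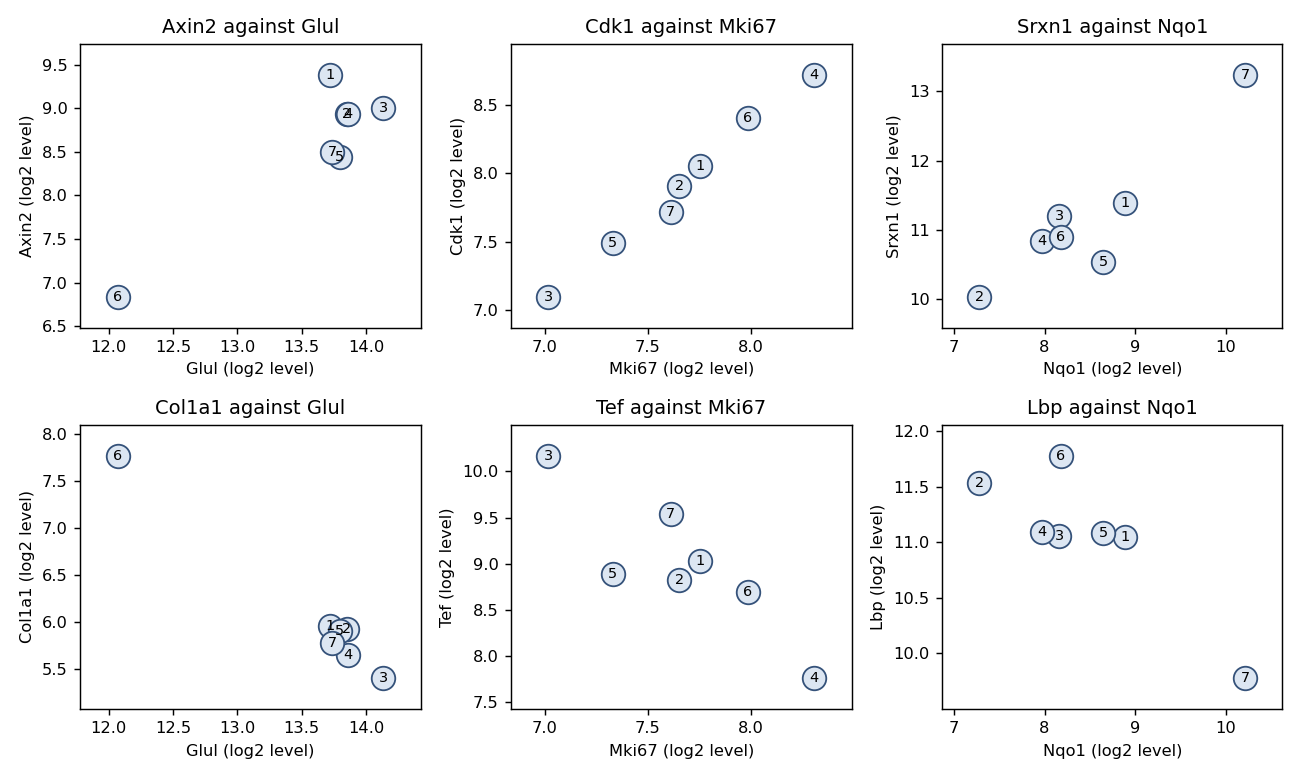
Log2 levels of 6 genes against Glul, Mki67 or Nqo1 (log2 level on the horizontal axis) in the 7 Ctnnb1 tumours, each circle carrying its tumour's number. In the Glul panels tumour 6 lies far from the other 6, Cdk1 rises with Mki67 over the whole range, and in the Nqo1 panels tumour 7 lies at the far end.

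Mki67 varied less than Glul or Nqo1 and formed a gradual scale. It measured 7.75, 7.65, 7.02, 8.31, 7.33, 7.98 and 7.61 (7.67 ± 0.42, SD, n = 7), against 6.17 ± 0.88 in phenobarbital control livers and 5.36 ± 0.55 in untreated livers (SD, n = 3 each). The phenobarbital controls measured 5.69, 5.63 and, in control 6 with its wide Gapdh difference, 7.18, and their mean was 5.66 without it. Tumour 4 was highest and tumour 3 lowest, a span of 1.29 log2 units. Genes with r of at least 0.8 numbered 112 (1.18%), and those with r of at most −0.8 numbered 72 (0.757%). In limma's regression 2 genes passed, 0.021% of those tested, and by exact permutation none did (lowest adjusted p 0.755, 288 with an unadjusted exact p under 0.05). Without any 1 of tumours 1 to 6 the limma count was 0, and without tumour 7 it was 3.

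The 2 genes were Cdk1, the kinase that starts mitosis, and Ckap2, a spindle protein. Cdk1 measured 8.05, 7.91, 7.10, 8.72, 7.49, 8.41 and 7.71, in the same order as Mki67 in all 7 tumours. Its r was 0.993 and rho 1 (exact permutation p = 0.000397 for each, limma's adjusted p = 0.0423), and r was 0.979 without tumours 3 and 4, the 2 farthest from the median of Mki67. Ckap2 measured 7.42, 7.28, 6.38, 8.29, 6.67, 8.04 and 7.14 (r 0.985, rho 1, exact p = 0.000397 for each), with r 0.991 without those tumours. All 19 kept mitosis and spindle genes other than Mki67 had r of at least 0.8, against 1.18% of all genes. Their median was 0.95, against −0.01 over all genes. They include Cdc20, an activator of the anaphase-promoting complex, with 8.67, 8.07, 7.23, 9.18, 7.72, 8.72 and 8.58, Ccnb2, a cyclin of mitosis, between 6.40 in tumour 3 and 8.0 in tumour 4, and Ube2c, the ubiquitin-conjugating enzyme of the same complex, between 6.50 and 8.14. Cenpf, a kinetochore protein, ran from 5.77 in tumour 3 to 7.71 in tumour 4. All were read on the same 7 arrays and are not independent of one another.

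Genes of DNA replication followed less closely. Of 19 kept, 3 had r of at least 0.8, against 1.18% of all genes. A positive r was found in 18, and the median was 0.644, against −0.01 over all genes. Rrm2, a subunit of ribonucleotide reductase, was 8.46, 8.45, 7.13, 8.29, 7.42, 8.41 and 8.38, low in tumours 3 and 5 and level in the other 5. Its r to Mki67 was 0.777 (exact permutation p = 0.0458), rho 0.536 (exact p = 0.236) and r without tumours 3 and 4 0.795. Mcm6, a subunit of the replicative helicase, measured 8.66, 8.06, 8.50, 9.22, 7.91, 8.81 and 8.88. The difference between the 2 lists was not tested.

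Several genes of the circadian clock ran against Mki67. Of 15 kept clock genes 4 had r of at most −0.8, against 0.757% of all genes, and 0 of at least 0.8. Their median was −0.657, against −0.01 over all genes. Tef, a clock output factor, measured 9.03, 8.83, 10.16, 7.77, 8.89, 8.70 and 9.53. Its r was −0.872 (exact permutation p = 0.0153) and rho −0.821 (exact p = 0.0341). The r was −0.756 without tumour 3, −0.753 without tumour 4 and −0.266 without both. These tumours are the ends of the Mki67 range, so the last r cannot show whether the relation rests on them. Usp2, a clock-controlled deubiquitinase, was 9.21 in tumour 3 and 6.93 in tumour 4 (r −0.821, exact p = 0.0254, rho −0.857, exact p = 0.0238, and r −0.710 without tumours 3 and 4). Nr1d2, a repressor of the clock, was highest in tumour 3 at 11.52 and lowest in tumour 4 at 9.65, as was Per3, a period gene, at 7.74 and 5.45. Dbp, another output factor, measured 8.22, 8.45, 11.37, 7.01, 8.01, 8.84 and 10.29, and Arntl, the core activator that peaks at the opposite phase, 7.57, 7.18, 4.74, 8.31, 7.49, 7.09 and 5.00. Tumours 3 and 7 thus had high Dbp with low Arntl, and tumour 4 the reverse. The labels give no time of day for the samples, and its part was not tested.

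Nqo1 was highest in tumour 7. It measured 8.89, 7.28, 8.16, 7.97, 8.65, 8.18 and 10.22 (8.48 ± 0.92, SD, n = 7), against 6.52 ± 0.43 in phenobarbital control livers (SD, n = 3). Genes with r of at least 0.8 numbered 366 (3.85%) and those with r of at most −0.8 numbered 306 (3.22%). In limma's regression 1 gene passed, Cbr3, 0.0105% of those tested, and by exact permutation none did (lowest adjusted p 0.377, 849 with an unadjusted exact p under 0.05). In limma 0 genes passed without tumour 7, 2 without tumour 6, 3 without tumour 5 and 7 without tumour 2.

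Cbr3, a carbonyl reductase, measured 9.45, 5.72, 7.94, 7.62, 7.92, 7.46 and 11.77, highest in tumour 7 and lowest in tumour 2, as Nqo1 was. Its r was 0.979 (exact permutation p = 0.00159, limma's adjusted p = 0.00918) and rho 0.821 (exact p = 0.0341), and r was 0.821 without tumours 2 and 7, the 2 farthest from the median of Nqo1. Txnrd1, the cytosolic thioredoxin reductase, followed the order of Nqo1 in all 7 tumours over a narrow range, 11.12, 10.65, 10.84, 10.82, 10.89, 10.85 and 11.21. It had r 0.947 (exact p = 0.000198, the smallest that all orders of the 7 tumours allow), rho 1 (exact p = 0.000397) and r 0.870 without tumours 2 and 7, but its adjusted p in limma was 0.298. Pgd, an enzyme of the pentose phosphate pathway, measured 11.55, 10.47, 10.79, 10.79, 11.03, 10.92 and 12.63 (r 0.974, exact p = 0.000397, rho 0.964, exact p = 0.00278, and r 0.904 without tumours 2 and 7). Srxn1, the sulfiredoxin, was 13.24 in tumour 7 and 10.04 to 11.38 in the others. Its r of 0.920 (exact p = 0.00913, rho 0.750, exact p = 0.0663) was 0.216 without tumours 2 and 7.

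Of 28 kept NRF2 target genes other than Nqo1, 7 had r of at least 0.8, against 3.85% of all genes. An r of at most −0.8 was found in 0, and the median was 0.602, against −0.01 over all genes. Slc7a11, the cystine transporter, measured 7.43, 4.46, 6.40, 5.17, 5.02, 4.36 and 9.44, and Abcc4, an export pump, 11.74, 10.33, 11.37, 10.57, 10.37, 8.87 and 12.44. Both were highest in tumours 7, 1 and 3 and lowest in tumour 6. The subunits of glutamate-cysteine ligase, named after their values were seen, differed: Gclc lay between 11.96 in tumour 2 and 12.75 in tumour 7, while Gclm was lowest in tumour 7 at 11.65 and 11.75 to 12.08 elsewhere. Among other genes Psat1, of serine synthesis, was 7.05 in tumour 7 and 5.69 to 6.56 elsewhere, and Asns, the asparagine synthetase, 8.55 and 5.57 to 7.66. Scd2, a fatty acid desaturase, measured 10.49, 8.42, 7.20, 9.53, 9.81, 7.61 and 12.54. Pparg, the nuclear receptor of fat storage, was 7.84 in tumour 7 and 5.74 in tumour 2, with the others between 6.26 and 7.03 (r 0.936, exact permutation p = 0.00516, rho 0.857, exact p = 0.0238, and r 0.681 without tumours 2 and 7). Ces1g, a carboxylesterase, ran the same way, with 11.89 and 10.14 at the ends. All 17 kept genes of cholesterol synthesis had a positive r to Nqo1, with a median of 0.654 against −0.01 over all genes. Of these 17, 0 reached 0.8, against 3.85% of all genes.

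Acute phase genes ran the other way: 8 of 22 kept had r of at most −0.8 to Nqo1, against 3.22% of all genes. Of the 22, 0 had a positive r, and the median was −0.753, against −0.01 over all genes. Lbp, which binds bacterial lipopolysaccharide, measured 11.04, 11.54, 11.06, 11.10, 11.08, 11.77 and 9.78 (r −0.871, exact permutation p = 0.0218, rho −0.714, exact p = 0.0881), and r was −0.318 without tumours 2 and 7. Orm1, an orosomucoid, lay between 12.30 in tumour 7 and 13.72 in tumour 2 (r −0.923, exact p = 0.00972, rho −0.607, exact p = 0.167, and −0.333 without those 2). Their low end was tumour 7 and their high end tumour 2 or 6. Cdh1, the E-cadherin that beta-catenin binds at the membrane, measured 7.90, 9.38, 8.01, 8.47, 8.64, 7.43 and 5.70 (r −0.879, exact p = 0.0171, rho −0.714, exact p = 0.0881), and r was 0.063 without tumours 2 and 7. Ppargc1a, a coactivator of mitochondrial and gluconeogenic genes, was 5.21 in tumour 7 and 7.74 to 8.12 in the other 6, and Hamp, the iron hormone hepcidin, 8.41 and 8.92 to 11.44. Slc3a1, a subunit of an amino acid transporter, measured 8.12, 9.43, 8.19, 7.97, 6.94, 8.18 and 5.91. Bile acid synthesis and transport genes averaged 11.07 in tumour 7 and 11.42 to 11.51 in the others.

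Some markers of other cell types stood apart in tumour 7 too. MHC class II genes of antigen-presenting cells averaged 8.23, 9.0, 8.21, 8.34, 8.43, 9.44 and 10.13 over the 5 kept, highest in tumours 7 and 6, and H2-Eb1 among them reached 10.91 and 10.02 against 8.69 to 9.44. Vim, the vimentin of mesenchymal cells, was 11.30 in tumour 7, 10.38 in tumour 6 and 8.95 to 9.58 in the others. The 15 kept stellate cell and fibroblast markers, Vim among them, averaged 7.78 in tumour 7 and 7.71 to 8.57 in the others. Clec4f, a marker of Kupffer cells, was lowest in tumour 7 at 7.02, against 7.76 to 9.28. Vsig4, a complement receptor of these cells, was also lowest there, at 7.28 against 8.27 to 9.77. The mean of the 10 kept Kupffer cell and macrophage markers was not, at 9.06 against 8.84 in tumour 3 and 9.02 in tumour 5. Of these 10 markers 5 had a positive r to Nqo1, with a median of 0.0483. Clec4g, of sinusoidal endothelium, was 6.83 in tumour 7 and 8.60 to 9.82 in the others. Ighm, the heavy chain of IgM, had 8.60 in tumour 7 and 10.47 to 12.57 in the others. It is 1 of 3 kept lymphocyte markers, of which 2 had a positive r to Nqo1. Their mean was 8.92 in tumour 7 and lowest in tumour 3, at 8.58. The interferon-induced Mx1 and Gbp2 were highest in tumour 7 at 8.03 and 9.60. The part of other cells in the relations to Nqo1 was not tested.

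**Figure D4:**
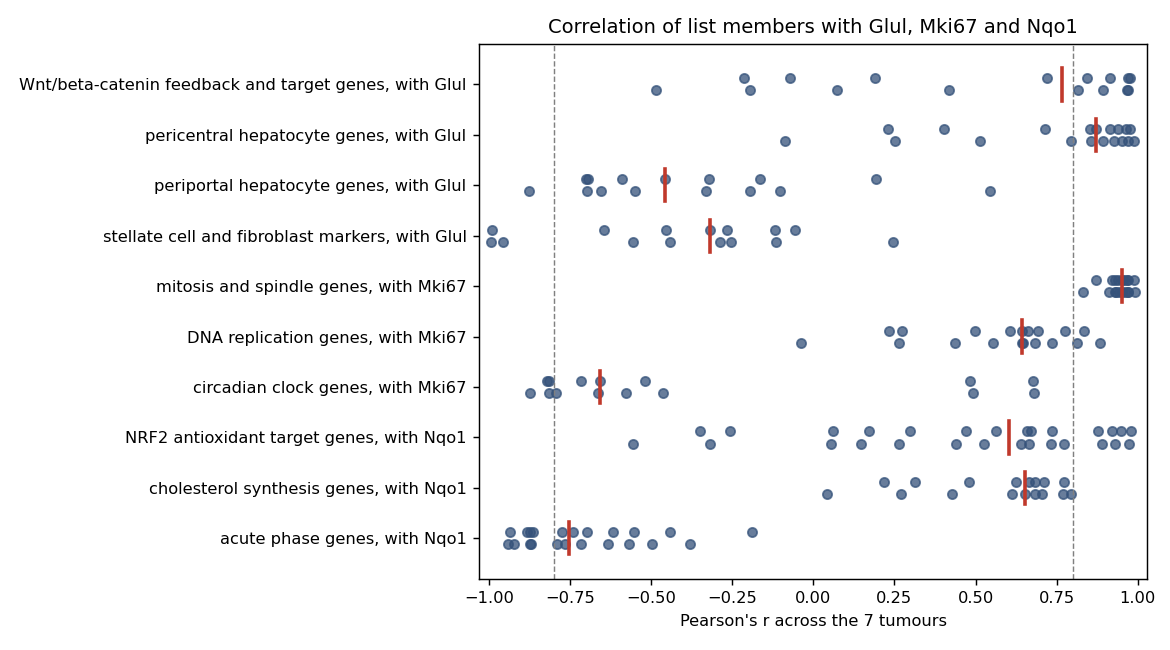
Pearson's r of the kept members of 10 gene lists with Glul, Mki67 or Nqo1 across the 7 Ctnnb1 tumours; each point is 1 gene, the red bar is the median and dashed lines mark r of 0.8 and −0.8. All 19 mitosis and spindle genes lie past 0.8 with Mki67, while the Wnt, pericentral and NRF2 lists have members on both sides of 0.8.

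Among 28 pairs of Glul, Axin2, Mki67, Nqo1, Afp, Hal, Cyp2b10 and Dcn none passed after adjustment, and 2 had an exact unadjusted p for r under 0.05. In 2 pairs r was at least 0.8, Glul with Axin2, given above, and Glul with Afp, and in 0 it was at most −0.8. Glul with Afp had r 0.918 (exact permutation p = 0.00873, adjusted p = 0.244) and rho 0.714 (exact p = 0.0881, adjusted p = 0.940), and r was 0.166 without tumours 3 and 6. Axin2 with Afp had r 0.797 (exact p = 0.0732, adjusted p = 0.512) and rho 0.536 (exact p = 0.236, adjusted p = 0.940), and r was −0.509 without tumours 5 and 6. Hal with Dcn had r 0.714 (exact p = 0.0385, adjusted p = 0.512) and rho 0.643 (exact p = 0.139, adjusted p = 0.940), and r was −0.017 without tumours 3 and 7. Glul and Nqo1 had r 0.048 (exact p = 0.928) and rho −0.607 (exact p = 0.167), and r −0.813 without tumours 3 and 6. Since Glul hardly varied in the tumours left, that last r shows neither a relation nor its absence, and nor does that of Glul with Afp. Mki67 and Nqo1 had r −0.135 (exact p = 0.782) and rho −0.214 (exact p = 0.662), and r −0.192 without tumours 3 and 4.

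Genes of 1 chromosome often moved together in 1 tumour. For each tumour the log2 difference of every gene from the mean of the other 6 was taken and the median found per chromosome, over 9484 genes placed by GRCm38.p6. This view was added after the data were seen. Over all genes these medians were −0.04 to 0.06. In tumour 7 the median was −0.29 on chromosome 5 (500 of 619 genes below 0), −0.24 on chromosome 6, −0.23 on chromosome 19, −0.19 on chromosome 10 and −0.17 on chromosome 13. Every run of 50 neighbouring genes on these 5 was below 0. The same held for some smaller shifts, such as chromosome 7 in tumour 7 (−0.14) and chromosome 2 in tumour 4 (−0.05). Without the filter on low values the medians of tumour 7 were nearer 0, at −0.10, −0.03, −0.06, −0.05 and −0.02 on chromosomes 5, 6, 19, 10 and 13. With the filter and quantile normalization over the 7 tumours they were −0.225, −0.173, −0.169, −0.128 and −0.128, in the same order. In tumour 6 the median was −0.22 on chromosome 9 (424 of 531 genes below 0) and 0.15 on chromosome 2, and without the filter −0.10 and 0.08. Tumour 4 had 0.18 on chromosome 1, tumour 1 had 0.18 on chromosome 15, tumour 5 had 0.18 on chromosome X, and tumour 2 had −0.18 on X and −0.16 on chromosome 1. Without the filter those of tumours 1, 2, 4 and 5 also shrank, to between −0.04 and 0.08. Tumour 3 had none of 0.15 or more on these chromosomes.

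**Figure D5:**
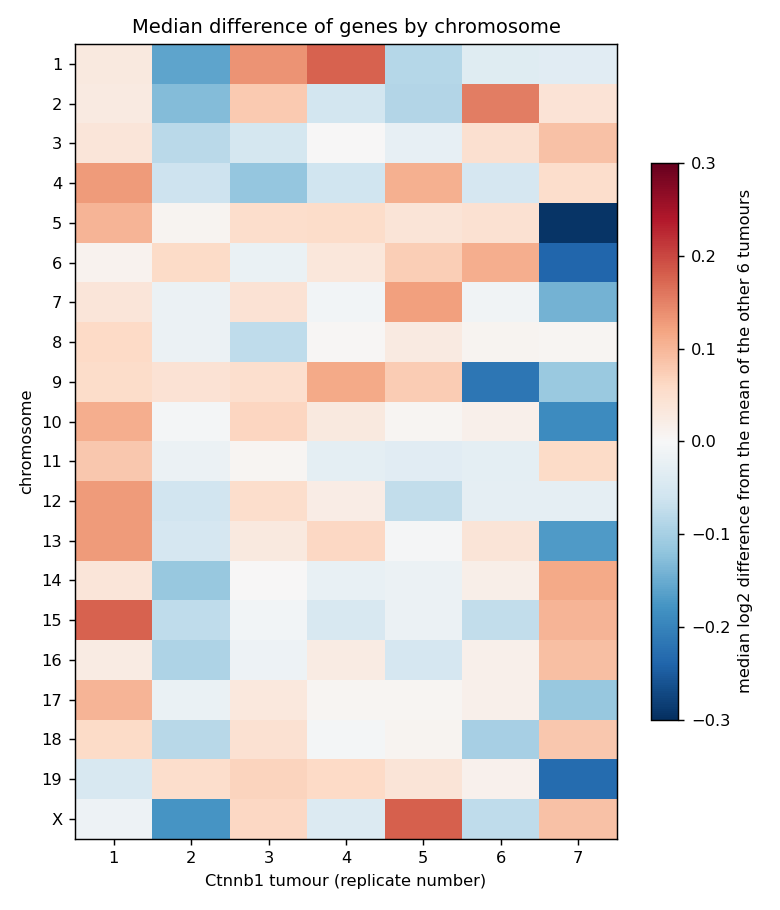
Median log2 difference of the genes of each chromosome (rows) in each Ctnnb1 tumour (columns) from the mean of the other 6 tumours, on a colour scale from −0.3 to 0.3. Tumour 7 is lowest on chromosomes 5, 6 and 19, tumour 6 on chromosome 9, and tumour 4 is highest on chromosome 1.

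These 5 chromosomes were picked because tumour 7 was low on them, and tumour 7 was also highest for Nqo1, so the next counts follow in part from that choice and are no independent result. Of the 306 genes with r of at most −0.8 to Nqo1, 180 (58.8%) lay on chromosomes 5, 6, 10, 13 and 19, against 2299 of all 9509 genes (24.2%) and 26 of the 366 with r of at least 0.8 (7.1%). Without tumour 7 it was 48 of 157 (30.6%) and 59 of 335 (17.6%). No DNA measurement was used here.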

How the data were processed

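RNA of 7 Ctnnb1 tumours was measured on 1 array each. Per the submitters' processing notes and the labels, the authors made the deposited log2 values per probe set by RMA in R 2.14.1, with background correction and normalization as RMA defines them. RMA pulls all arrays to 1 distribution, so that a shift of most genes would be lost, and low values include background. Precision is limited by the number of arrays.

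Of 45101 probe sets 34945 had 1 gene symbol in the platform annotation and were used, 932 had several, 9160 had none and 64 were controls. Of the kept genes 9488 matched RefSeq by Entrez identifier. Each gene was read from the probe set whose mean over the 7 tumours was highest, and was kept at a mean of at least 6. Covariation was fitted with limma 3.58.1 (R 4.3.3; lmFit on the centred anchor gene, then eBayes, Benjamini-Hochberg over all genes, adjusted p under 0.05), and described by r of at least 0.8 or at most −0.8. Exact permutation p-values of correlations, where given, are two-sided and over all orders of the 7 tumours. No test between groups was made. The fit was also run on simulated data with independent noise of the same SD in every gene. Real genes differ in SD and move together, so that run does not bear on the calls given here.

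Genes were named by a rule: the 25 largest and 5 smallest SDs, the 10 highest and 10 lowest r per anchor gene among genes with an SD of at least 0.5, the 8 anchor genes and Ctnnb1, and up to 4 members per list by SD and by r. Which are described was chosen from their values. The members, lists and rule were written with earlier results of these data known. Alternatives tried were the filter, the probe set, scaling, each tumour left out, Spearman's rho, other fits, and, chosen after the data were seen, tumours 6 and 7 left out together, phenobarbital control 6 left out, tumour 7 left out of the chromosome counts, and partners with no SD limit.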

Additional observations from a re-analysis of the deposited data

Results flagged for a closer look

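Of 142 values looked at over the 7 tumours (the genes described, the means of gene lists and the Gapdh gap), 31 had 1 tumour whose distance to the next was more than 0.568 of the whole range, Dixon's limit for 7 samples. Chance flags about 1 in 20 groups that were not chosen by their values. Most of these genes were named for a large SD or an extreme r, to Glul among others, in which tumour 6 itself stands apart, so the number that stood apart, and tumour 6's share of it, follow largely from that choice. Genes that move together also stand apart together. Tumour 6 was the one in 19 of them, tumour 7 in 6 and tumours 2, 3 and 5 in 2 each. Tumour 6 was low for Glul (12.07), Axin2 (6.84), Oat (10.28), Rhbg (7.91), Sp5 (4.96), Notum (7.22), Tbx3 (8.30), Rnf43 (7.25), Cyp1a2 (12.63), Gulo (12.36), Atp10a (4.60), Nat8 (7.20) and Tuba8 (6.68). It was also low for the mean of the Wnt feedback and target genes, 7.40 against 8.27 to 8.69 in the others, and of the pericentral genes, 10.48 against 11.48 to 12.05. It was high for Col1a1 (7.77), Col1a2 (10.56), Col3a1 (10.82) and Col5a2 (8.38). Tumour 7 was high for Srxn1 (13.24) and low for Lbp (9.78), Clec4g (6.83) and Ppargc1a (5.21), for the mean of the bile acid genes, 11.07 against 11.42 to 11.51, and for that of the respiratory chain subunits, 11.79 against 11.97 to 12.07. Tumour 2 was high for Saa1 (13.46) and Saa2 (12.06). Tumour 3 was low for Kdm5d (5.02) and Eif2s3y (7.53). Tumour 5 was low for A2ml1 (5.96) and had the widest Gapdh gap (0.29).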

How the results depend on the processing

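No paired analysis was possible because 1 group alone is described. The count of genes with an SD of at least 1 was 99 to 143 with 1 tumour left out, 65 without tumours 6 and 7 together and 76 by the scaled median absolute deviation. Limma's count for Glul, 29, was 0 to 81 with 1 tumour left out, 19 by the mean of all probe sets, and 0 by exact permutation or without tumours 6 and 7. For Mki67, 2, it was 0 to 3 with 1 tumour left out, and 0 with the highest-variance probe set, with the Gapdh gap as a covariate, by exact permutation and without tumours 6 and 7. For Nqo1, 1, it was 0 to 7 with 1 tumour left out, 0 by exact permutation and without tumours 6 and 7, and 2 at a mean of at least 7, by the mean of all probe sets, by quantile normalization, by eBayes with trend and robust and with the Gapdh gap.

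Counts past 0.8 or −0.8 were higher with 1 tumour left out, as r spreads more over fewer arrays, except for both Nqo1 counts without tumour 7 (335 and 157). With 1 tumour left out they were 297 to 612 for Glul, 145 to 258 for Mki67 and 335 to 624 for Nqo1, and past −0.8 they were 261 to 480, 108 to 259 and 157 to 831. Without tumours 6 and 7 the counts past 0.8 were 596, 409 and 723, and past −0.8 they were 689 for Glul and 384 for Mki67. With no filter on low values they were 340 past −0.8 for Glul, and 268 past 0.8 and 153 past −0.8 for Mki67. For Mki67, 74 genes were past 0.8 at a mean of at least 7 and 45 past −0.8 with the highest-variance probe set. By Spearman's rho 221 and 122 genes were past 0.8 and −0.8 for Nqo1. The r of Col5a2 to Glul turned to 0.0929 without tumours 6 and 7, which were left out together after the data were seen. Causes of these changes were not tested. The number of pairs of anchor genes that passed, 0, and the share of the first component did not change by more than 1.5 times under the alternatives run. With 7 arrays, no gene could be called by exact permutation after adjustment unless many shared the lowest p.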

Other observations

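Gene lists not yet described also differed between the tumours. Male-biased liver genes, 9 kept, averaged 11.41, 10.75, 10.78, 11.36, 11.11, 10.49 and 10.01 in tumours 1 to 7, lowest in tumour 7. Of these 9 genes 4 had an SD of at least 1, against 1.29% of all genes. Female-biased genes, of which only 4 were kept, averaged 7.84, 9.31, 7.54, 9.14, 9.04, 7.73 and 7.80, with tumours 2, 4 and 5 high. The 30 kept enzymes of amino acid breakdown and the urea cycle averaged 9.71 in tumour 7, 10.00 in tumour 3 and 10.38 to 10.65 in the other 5. Interferon response genes, 23 kept, averaged 8.17 to 8.85, highest in tumour 7. The 20 kept genes of endoplasmic reticulum chaperones and the unfolded protein response averaged 10.38 to 10.60, with a median SD of 0.184 against 0.201 over all genes. Of these 20 genes 1, Asns, had an SD of at least 1, against 1.29% of all genes.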
